A study of Homo sapiens with 24 samples.

Results

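The CCN family comprises 6 genes, CCN1 to CCN6, which were looked up by Ensembl identifier among the 60279 genes counted in each of 24 libraries of SW872 cells, a human liposarcoma cell line. All 6 were present. CCN proteins are secreted matricellular proteins, that is, proteins of the extracellular matrix that signal to cells more than they hold tissue together. They are built from 4 kinds of module (an insulin-like growth factor binding protein module, a von Willebrand factor type C module, a thrombospondin type 1 repeat and a cysteine-knot C-terminal module), and CCN5 lacks the last of these. They act mainly through integrins and their co-receptors. CCN1 (CYR61) and CCN2 (CTGF) are among the best known direct targets of the coactivators YAP and TAZ with their DNA-binding partners, the TEAD factors. CCN3 (NOV), CCN4 (WISP1), CCN5 (WISP2) and CCN6 (WISP3) are much less studied in this setting.

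Each of 8 groups held 3 libraries of cells stably transduced with a retroviral vector. Confluent groups carried empty vector (EV), TAZ-CAMTA1, the TAZ4SA-labelled libraries, YAP-TFE3, YAP5SA or full-length TFE3 and were collected 48 h after confluence. A sub-confluent empty vector (here EVsub) and full-length CAMTA1 were collected below confluence. TAZ-CAMTA1 and YAP-TFE3 are fusion proteins of epithelioid hemangioendothelioma that join the N terminus of TAZ or YAP to the C terminus of CAMTA1 or TFE3, while TAZ4SA and YAP5SA carry alanines in place of serines that the LATS kinases of the Hippo pathway phosphorylate. All constructs, per the study's methods, were Flag-tagged and selected with G418 as pools, the 3 replicates came from separate transductions, and all groups share 1 host line, so only construct and density differ by label. Markers were read from lists of 5 cell types. All 6 mesenchymal markers were expressed at 1 CPM or more in every group (CPM are counts scaled by TMM-adjusted library size), with VIM from 472 to 1086 CPM. Among 6 markers of mature adipocytes only LPL reached 1 CPM, and the defining ADIPOQ was at 0. Of the 6 endothelial markers 5 reached 1 CPM in every group, and their summed level was 124 CPM in EV, 133 in TFE3, 160 in TAZ-CAMTA1, 83.2 in YAP-TFE3, 55.6 in the TAZ4SA-labelled libraries, 31.5 in YAP5SA, 51.7 in EVsub and 39.2 in CAMTA1. KDR, for example, stood at 44.6 CPM in EV and 2.87 CPM in YAP5SA. The 5 epithelial markers summed to 207 CPM in EV, 2037 in the TAZ4SA-labelled libraries and 3573 in YAP5SA, nearly all of it KRT8 and KRT18. Their sum was 190 CPM in TFE3, 303 in YAP-TFE3, 429 in EVsub, 464 in TAZ-CAMTA1 and 512 in CAMTA1. CDH1 was also higher, at 0.0242 CPM in EV, 0.856 in the TAZ4SA-labelled libraries and 1.53 in YAP5SA. EPCAM had its highest group mean in EV (0.598 CPM in YAP5SA), and KRT19 had no group mean above 0.425 CPM. The 4 leukocyte markers summed to at most 1.81 CPM, with PTPRC at most 0.0198 CPM. The part of these markers in the CCN values was not tested.

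As a check of the labels, the genes that the constructs carry were read first. CAMTA1 was counted at 144 ± 7.14 CPM (SD, n = 3) with TAZ-CAMTA1 against 21.4 ± 2.05 CPM in EV, and at 124 ± 8.09 CPM with CAMTA1 against 22.9 ± 1.23 CPM in EVsub. Library totals ran from 19700277 to 35287476 counts. YAP-TFE3 replicate 3 stood apart from its replicates, with a chi-square per degree of freedom of 63.5 and 50.1 against them, where no other pair of replicates exceeded 23.2, and a mitochondrial share of 5.12% against 3.63% and 3.79%. TFE3 was counted at 283 ± 49.6 CPM with YAP-TFE3 and 336 ± 19.3 CPM with TFE3 against 119 ± 10.1 CPM in EV, and YAP1 at 253 ± 4.99 CPM with YAP5SA against 128 ± 12.5 CPM. WWTR1, which encodes TAZ, went against its label. It stood at 134 ± 0.539 CPM in the TAZ4SA-labelled libraries and at 204 ± 20.3 CPM in EV, a log2 difference of -0.60 (edgeR adjusted p = 9.77e-07). WWTR1 was no higher with TAZ-CAMTA1 either (181 ± 2.15 CPM), although CAMTA1 was raised there, and stood at 68.7 ± 1.66 CPM with YAP5SA. Set against EV, WWTR1 counts thus marked neither TAZ construct. Set against YAP5SA, WWTR1 was higher in the TAZ4SA-labelled libraries with no overlap (lowest 134 CPM, against a highest of 70.4 CPM in YAP5SA). Which group is the better reference for WWTR1 was not tested. Every direction drawn from the 3 TAZ4SA-labelled libraries rests on a label that its own gene, set against EV, went against and that WWTR1 counts cannot settle. The study shows a Western blot of Flag-tagged TAZ4SA in SW872 cells, which is protein evidence apart from these counts.

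Sequences immediately before the start site were available for CCN2, the member with the largest rise, and CCN6, the member with the fewest reads, from RefSeq (GRCh38.p14). They are shown because TEAD factors, through which YAP and TAZ reach DNA, recognise GGAATG, the letters in capitals. The stretches hold the 250 bases before the start site, 5′ to 3′ in the direction of the gene, at chr6:131951373-131951622 (minus strand) for CCN2 and chr6:112053854-112054103 (plus strand) for CCN6.
CCN2: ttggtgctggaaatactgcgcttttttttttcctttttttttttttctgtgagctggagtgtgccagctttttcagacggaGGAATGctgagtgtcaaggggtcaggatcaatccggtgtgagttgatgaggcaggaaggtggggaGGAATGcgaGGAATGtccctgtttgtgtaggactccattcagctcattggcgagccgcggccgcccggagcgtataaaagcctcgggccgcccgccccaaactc
CCN6: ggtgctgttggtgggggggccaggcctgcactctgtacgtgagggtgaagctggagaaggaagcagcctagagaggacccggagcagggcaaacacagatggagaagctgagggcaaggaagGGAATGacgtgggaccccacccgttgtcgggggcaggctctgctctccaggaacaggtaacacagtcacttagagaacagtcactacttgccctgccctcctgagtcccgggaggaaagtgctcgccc
CCN2 held GGAATG 3 times on its own strand, the first letters lying 169, 104 and 95 bases before the start site. CCN6 held it once on its own strand, 128 bases before the start site, and once on the other strand at the start site itself, where the match runs past the printed stretch. Among 35116 promoters of the same 300 bases (250 before and 50 after the start), searched on both strands, 14.0% held at least 1 GGAATG, 1.37% at least 2 and 0.128% at least 3. The E-box CACGTG, read by TFE3 and its relatives, stood in 7.26% of these promoters and the AP-1 motif TGAGTCA in 4.95%, and neither was found in CCN2 or CCN6. These matches describe letters and say nothing of binding in these cells.

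The 6 genes lie on 4 chromosomes (GRCh38, GENCODE 44). CCN1 (ENSG00000142871) spans 85580761 to 85584589 on the plus strand of chromosome 1. CCN2 (ENSG00000118523) spans 131948176 to 131951372 on the minus strand of chromosome 6, and CCN6 (ENSG00000112761) 112054075 to 112069686 on its plus strand. CCN3 (ENSG00000136999) and CCN4 (ENSG00000104415) share the plus strand of chromosome 8, at 119416446 to 119424434 and 133191039 to 133231690. CCN5 (ENSG00000064205) spans 44714844 to 44728509 on the plus strand of chromosome 20. 3 members overlap long noncoding RNAs of the opposite strand. LINC01013 shares 278 exon bases with CCN2 and had at most 6 counts in a library, against 340 or more for CCN2. KCNK15-AS1 overlaps CCN5 but shares 0 exon bases with it, and the RNA that overlaps CCN3 and was counted (ENSG00000253398) had at most 1 count. Another opposite-strand RNA, ENSG00000286282, shares 204 exon bases with CCN3. It is not among the genes counted, so its level could not be read. The libraries were made with a stranded kit, but whether the deposited counts used the strand is not given in the sources used here.

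The family as a whole was carried by CCN1 and CCN2. Levels per kilobase of exon depend on the annotated exon length of each gene. On that scale EV held 11.1 CPM per kb of CCN1, 9.10 of CCN2, 2.69 of CCN3, 0.547 of CCN4, 0.0917 of CCN5 and 0.0849 of CCN6. The summed level of the family was 23.6 ± 3.60 CPM per kb in EV (n = 3), 20.1 ± 4.19 in TFE3, 79.0 ± 11.2 in EVsub, 89.7 ± 4.20 in TAZ-CAMTA1, 125 ± 16.4 in YAP-TFE3, 138 ± 10.1 in CAMTA1, 411 ± 13.5 in YAP5SA and 498 ± 13.3 in the TAZ4SA-labelled libraries. CCN1 and CCN2 together made up 85.4% ± 1.18 of that sum in EV and 84.0% ± 2.42 in TFE3. Their share reached 94.6% ± 1.60 in YAP-TFE3, 96.3% ± 0.294 in TAZ-CAMTA1, 99.7% ± 0.0420 in YAP5SA and 99.8% ± 0.0185 in the TAZ4SA-labelled libraries. Among 19599 tested genes with an exon length, CCN2 ranked 4629th by mean level per length in EV and 118th in the TAZ4SA-labelled libraries. CCN3 moved the other way, from rank 9386 to rank 14254.

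**Figure D1:**
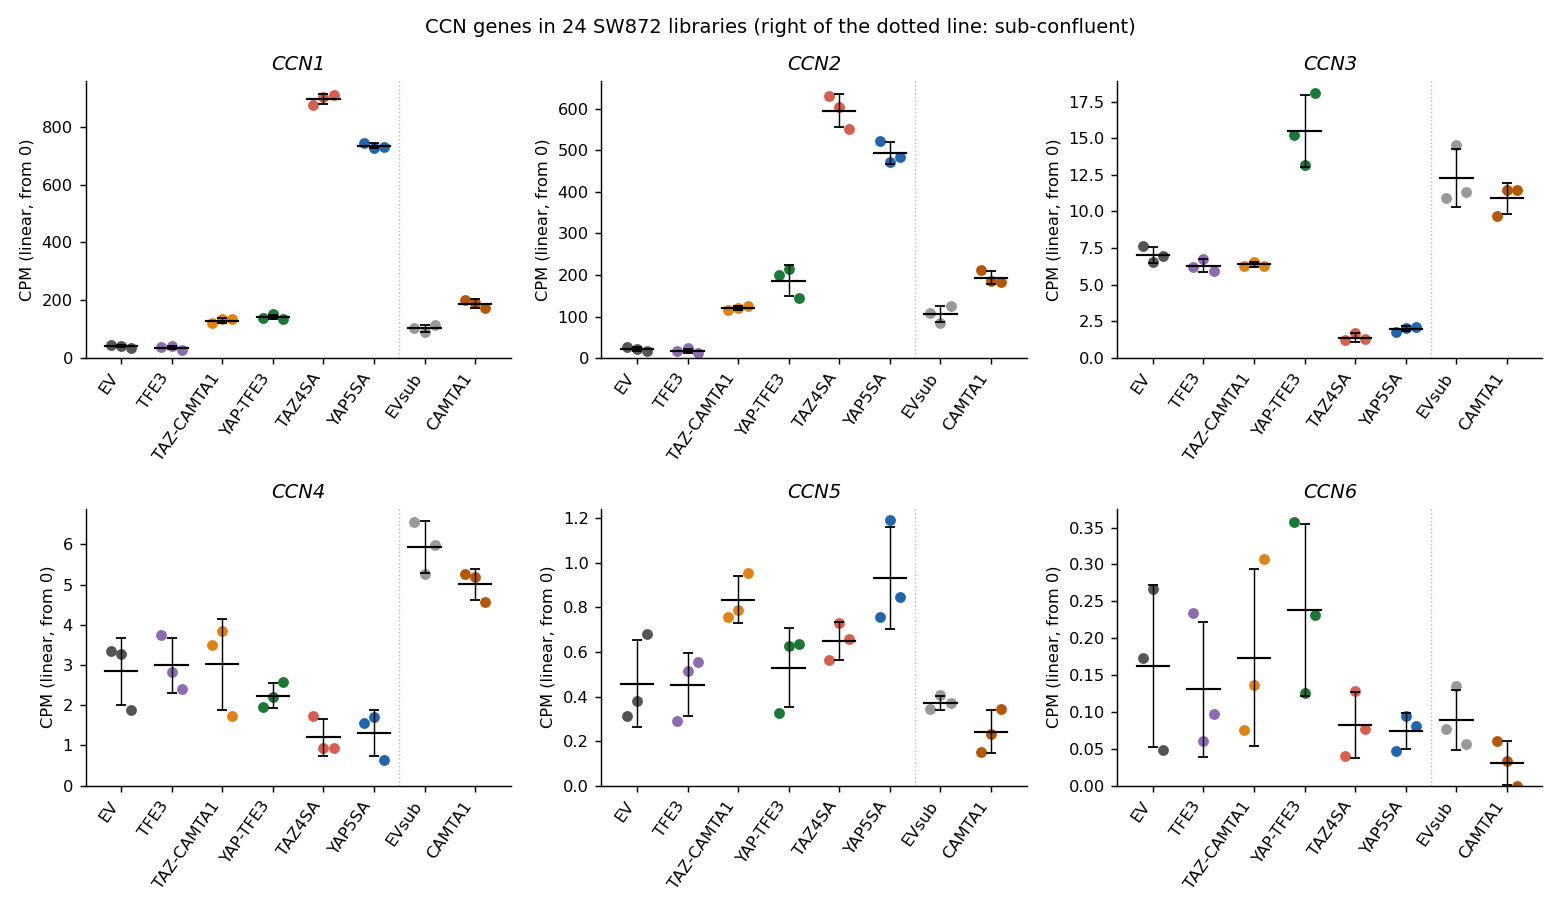
CPM of the 6 CCN genes in each of 24 libraries (points, linear axes from 0, a scale of its own in each panel), with the group mean (line) and SD (bar) of 3 libraries. CCN1 and CCN2 stand highest in the TAZ4SA-labelled libraries and in YAP5SA, the groups in which CCN3 and CCN4 stand lowest, and YAP-TFE3 holds the highest mean of CCN3.

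CCN1, a ligand of several integrins and of syndecan-4, had 44.5, 42.3 and 35.9 CPM in the 3 EV libraries and 38.6, 40.0 and 28.6 CPM in TFE3. It had 120, 133 and 134 CPM in TAZ-CAMTA1 and 140, 151 and 136 CPM in YAP-TFE3. All 6 fusion libraries lay above every EV and TFE3 library. In the TAZ4SA-labelled libraries it had 875, 904 and 909 CPM and in YAP5SA 744, 729 and 730 CPM. Those 6 libraries stood apart from all others, since the next highest was a CAMTA1 library. The CAMTA1 libraries held 202, 189 and 172 CPM and the EVsub libraries 104, 90.1 and 113 CPM. In the order of group means (labelled TAZ4SA, YAP5SA, CAMTA1, YAP-TFE3, TAZ-CAMTA1, EVsub, EV, TFE3) only EV and TFE3 had overlapping libraries among neighbours.

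CCN2, which binds TGF-beta and integrins and is a driver of fibrosis, had 26.7, 20.7 and 16.5 CPM in EV and 16.0, 23.1 and 11.7 CPM in TFE3. It had 115, 121 and 126 CPM in TAZ-CAMTA1 and 201, 213 and 145 CPM in YAP-TFE3. The 3 YAP-TFE3 libraries all exceeded the 3 TAZ-CAMTA1 libraries, the third by less than the other two. The TAZ4SA-labelled libraries had 631, 604 and 552 CPM and the YAP5SA libraries 523, 471 and 485 CPM. EVsub held 110, 84.3 and 124 CPM, which overlapped TAZ-CAMTA1. CAMTA1 held 211, 185 and 183 CPM, which overlapped YAP-TFE3.

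CCN3, a member often described as restraining proliferation, had a different order of groups. It had 7.63, 6.55 and 6.93 CPM in EV, 6.23, 6.78 and 5.92 CPM in TFE3 and 6.29, 6.58 and 6.31 CPM in TAZ-CAMTA1, and these groups overlapped one after another. YAP-TFE3 held 15.2, 13.2 and 18.0 CPM, the highest mean. EVsub held 10.9, 14.6 and 11.4 CPM and CAMTA1 9.69, 11.5 and 11.5 CPM. The EVsub range overlapped both YAP-TFE3 and CAMTA1, and all these libraries lay above every EV library. The lowest levels were 1.21, 1.72 and 1.27 CPM in the TAZ4SA-labelled libraries and 1.79, 2.05 and 2.13 CPM in YAP5SA, where 30 to 53 reads lay behind each value.

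CCN4, a target of WNT signaling in other cells, was highest below confluence. It had 6.56, 5.27 and 5.99 CPM in EVsub and 5.27, 5.19 and 4.57 CPM in CAMTA1. No confluent library reached these values. EV held 3.35, 3.28 and 1.89 CPM, TFE3 3.74, 2.83 and 2.41 CPM and TAZ-CAMTA1 3.49, 3.84 and 1.72 CPM. YAP-TFE3 held 1.95, 2.20 and 2.57 CPM, within the range of EV. The TAZ4SA-labelled libraries held 1.73, 0.945 and 0.926 CPM and YAP5SA 1.56, 1.71 and 0.643 CPM, all below the lowest EV library, on 16 to 43 reads each.

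CCN5, the member without the C-terminal module, was near the limit of these libraries, with 5 to 31 reads per library. It had 0.311, 0.381 and 0.679 CPM in EV and 0.756, 1.19 and 0.844 CPM in YAP5SA. The YAP5SA libraries lay above all EV libraries. TAZ-CAMTA1 held 0.758, 0.788 and 0.954 CPM, also above all EV libraries, and the TAZ4SA-labelled libraries 0.563, 0.730 and 0.656 CPM. YAP-TFE3 held 0.325, 0.628 and 0.636 CPM and TFE3 0.292, 0.512 and 0.553 CPM, both within or around EV. EVsub held 0.343, 0.406 and 0.369 CPM and CAMTA1 0.150, 0.232 and 0.344 CPM, the lowest mean. In the order of group means, only TAZ-CAMTA1 and the TAZ4SA-labelled libraries did not overlap as neighbours.

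CCN6, whose loss of function causes progressive pseudorheumatoid dysplasia of cartilage, was counted at 0 to 11 reads per library. YAP-TFE3 held 11, 4 and 8 reads, TAZ-CAMTA1 2, 4 and 10 reads, EV 5, 7 and 1 reads and TFE3 8, 2 and 3 reads. The TAZ4SA-labelled libraries held 1, 3 and 2 reads, YAP5SA 1, 2 and 2 reads, EVsub 2, 3 and 2 reads and CAMTA1 2, 1 and 0 reads. No neighbouring groups in the order of means were free of overlap. With a mean under 5 counts CCN6 did not enter the test across genes. The libraries of YAP-TFE3 (4 to 11 reads) and YAP5SA (1 to 2 reads) did not overlap, the only such pair among the 12 comparisons. With no filter beyond 1 count, edgeR put that difference at 1.63 on the log2 scale (SE 0.73, edgeR adjusted p = 0.0897 over 41116 genes), and no CCN6 difference passed. An exact two-sided permutation test of the CPM cannot go below 0.1 with 3 against 3 libraries, which it reached for this pair (adjusted p = 0.6 over 12 comparisons).

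The question of the design is how the fusions, YAP5SA, TAZ4SA and the full-length partners change expression relative to vector. Counts were tested with edgeR's quasi-likelihood F test over 19997 genes, and a gene is called where the Benjamini-Hochberg adjusted p is under 0.05. 5 members entered. In bulk RNA, fewer expressing cells and less RNA per cell cannot be told apart.

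Against EV, TAZ-CAMTA1 changed CCN1 and CCN2 alone among the 5 tested members, where 4.98% of all tested genes were called. CCN1 rose 3.16-fold (log2 fold change 1.66, SE 0.11, edgeR adjusted p = 1.89e-10), while CCN2 rose 5.63-fold (2.49, SE 0.19, edgeR adjusted p = 3.79e-09). CCN3 differed by -0.14 on the log2 scale (95% interval -0.43 to 0.15) and CCN4 by 0.06 (-0.53 to 0.65). CCN5 had a log2 difference of 0.92 with no overlap of libraries and missed the threshold (edgeR adjusted p = 0.109). Without EV replicate 3, the EV library with the lowest total (19700277 counts) and the highest CCN5, the difference was 1.27 and the edgeR adjusted p 0.0486.

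YAP-TFE3 against EV changed 3 members, all of them upward, in a comparison in which 48.2% of all genes were called. CCN1 rose 3.47-fold (log2 1.80, SE 0.11, edgeR adjusted p = 3.04e-12), CCN2 8.72-fold (log2 3.12, SE 0.20, edgeR adjusted p = 5.47e-12) and CCN3 2.20-fold (log2 1.14, SE 0.13, edgeR adjusted p = 2.08e-07). CCN4 differed by -0.36 (95% interval -0.95 to 0.24) and CCN5 by 0.27 (-0.43 to 0.97), neither past the threshold. Without YAP-TFE3 replicate 3, the library that stood apart, the log2 changes were 1.83 for CCN1, 3.28 for CCN2 and 1.01 for CCN3, all still past the threshold.

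In YAP5SA and in the TAZ4SA-labelled libraries the family differed from EV in both directions. In the TAZ4SA-labelled libraries against EV, where 49.2% of all genes were called, CCN1 was 21.9-fold higher and CCN2 27.9-fold higher (edgeR adjusted p = 3.73e-18 and 9.67e-15). CCN3 was 5.04-fold lower (log2 -2.33, SE 0.17, edgeR adjusted p = 4.84e-11) and CCN4 2.39-fold lower (log2 -1.26, SE 0.32, edgeR adjusted p = 0.00251). CCN5 differed by 0.55 on the log2 scale (95% interval -0.15 to 1.26). YAP5SA against EV, with 44.3% of all genes called, gave 17.9-fold more CCN1 and 23.1-fold more CCN2 (edgeR adjusted p = 8.36e-18 and 2.19e-14). CCN3 fell 3.53-fold (log2 -1.82, SE 0.16, edgeR adjusted p = 1.94e-09) and CCN4 2.24-fold (log2 -1.16, SE 0.33, edgeR adjusted p = 0.00557).

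CCN5 rose 2.09-fold with YAP5SA (log2 1.06, SE 0.33, edgeR adjusted p = 0.0106). This call rests on single libraries, because the difference was 0.83 (edgeR adjusted p = 0.0723) without EV replicate 1 and 0.86 (edgeR adjusted p = 0.0670) without YAP5SA replicate 2. KCNK15-AS1, the opposite-strand gene that overlaps CCN5, averaged 1.96 CPM with YAP5SA against 1.33 with EV (log2 0.57, edgeR adjusted p = 0.0884), and its part in the CCN5 value was not tested.

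Full-length TFE3 against EV changed 0 of the 5 tested members with edgeR, 0 at an unadjusted p under 0.05 and 0 with DESeq2, in a comparison that called 0.0350% of all genes. The log2 differences ran from -0.33 for CCN2 (95% interval -0.73 to 0.06) to 0.06 for CCN4 (-0.52 to 0.65). CAMTA1 against EVsub, with 1.83% of all genes called, changed CCN1 and CCN2. CCN1 rose 1.83-fold (log2 0.87, SE 0.11, edgeR adjusted p = 1.04e-05) and CCN2 1.82-fold (log2 0.86, SE 0.18, edgeR adjusted p = 0.00809). The CCN2 call was lost without CAMTA1 replicate 1 (log2 0.79, edgeR adjusted p = 0.0567) and without EVsub replicate 2 (log2 0.72, edgeR adjusted p = 0.0855). CCN3 (-0.17, 95% interval -0.45 to 0.10), CCN4 (-0.24, -0.78 to 0.30) and CCN5 (-0.69, -1.53 to 0.16) did not pass.

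Between the sub-confluent and the confluent empty vector 4 of the 5 tested members differed, in a comparison that called 36.8% of all genes. EVsub exceeded EV in CCN1 by 2.50-fold (log2 1.32, SE 0.11), in CCN2 by 4.97-fold (2.31, SE 0.19), in CCN3 by 1.74-fold (0.80, SE 0.14) and in CCN4 by 2.07-fold (1.05, SE 0.27), with edgeR adjusted p-values of 3.80e-08, 3.80e-08, 0.000104 and 0.00452. CCN5 differed by -0.25 (95% interval -1.01 to 0.51). The mitochondrial share of counts was 3.20% to 3.59% in EVsub and 5.09% to 5.43% in EV. The summed endothelial markers were lower in EVsub, although VWF was higher there (2.62 against 1.71 CPM). The part of this share and of these markers in the CCN differences was not tested. CCN1 and CCN2 were thus higher than EV in EVsub, in YAP5SA and in the TAZ4SA-labelled libraries, whereas CCN3 and CCN4 were higher in EVsub and lower in the latter groups. These comparisons share the EV libraries.

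**Figure D2:**
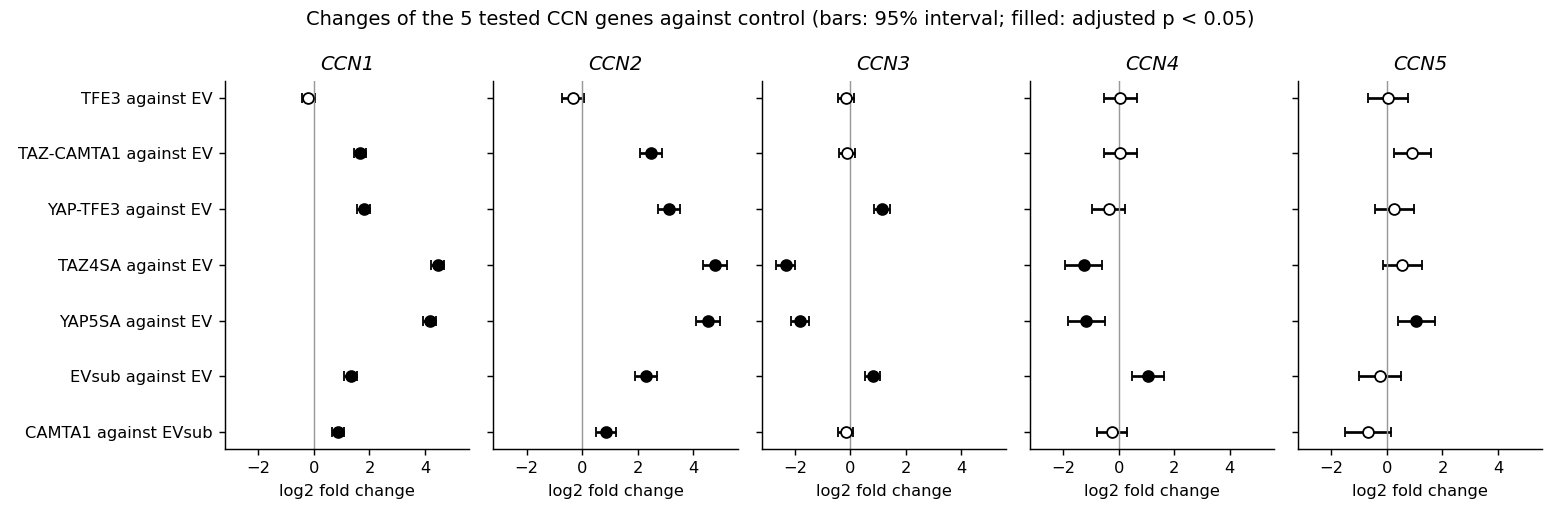
log2 fold change of the 5 tested CCN genes (x axis, linear in log2) in 7 comparisons with a vector control (rows). Bars are 95% intervals from 3 libraries a group and filled points passed an edgeR adjusted p under 0.05; CCN3 lies right of 0 with YAP-TFE3 (1.14) and left of 0 with YAP5SA (-1.82).

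TAZ-CAMTA1 set against the TAZ4SA-labelled libraries, and YAP-TFE3 against YAP5SA, had lower CCN1 and CCN2 and higher CCN3 and CCN4. WWTR1 was lower in the TAZ4SA-labelled libraries than in EV, so WWTR1 counts do not settle the label in the first of these. The study's Western blots of SW872 cells include Flag-tagged TAZ4SA. TAZ-CAMTA1 against the TAZ4SA-labelled libraries, where 53.7% of all genes were called, had 6.93-fold less CCN1 and 4.95-fold less CCN2 (edgeR adjusted p = 3.73e-15 and 3.47e-10). It had 4.57-fold more CCN3 (log2 2.19, SE 0.17, edgeR adjusted p = 1.42e-10) and 2.49-fold more CCN4 (log2 1.32, SE 0.32, edgeR adjusted p = 0.0013), although 1 library of each group overlapped in CCN4. CCN5 differed by 0.37 (95% interval -0.26 to 0.99).

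YAP-TFE3 against YAP5SA, with 52.4% of all genes called, had 5.17-fold less CCN1 and 2.65-fold less CCN2 (edgeR adjusted p = 1.94e-14 and 5.35e-07). CCN3 was 7.75-fold higher (log2 2.95, SE 0.16, edgeR adjusted p = 1.97e-13), the largest CCN3 difference among the 12 comparisons, and 2.83 on the log2 scale without YAP-TFE3 replicate 3. CCN4 was 1.75-fold higher (log2 0.81, SE 0.33, edgeR adjusted p = 0.0421) and CCN5 1.73-fold lower (log2 -0.79, SE 0.30, edgeR adjusted p = 0.0319). Both of these calls were fragile. CCN4 lost its call without YAP5SA replicate 3 (log2 0.46), YAP-TFE3 replicate 2 (0.82) or YAP-TFE3 replicate 3 (0.70) and with only the groups compared in the fit (0.78). CCN5 lost its call without YAP5SA replicate 2 (-0.59) or YAP-TFE3 replicate 1 (-0.55), with DESeq2 (-0.81, adjusted p = 0.0590), with only the groups compared (-0.81), with total-count scaling (-0.69) and with no filter beyond 1 count (-0.78).

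YAP-TFE3 against full-length TFE3, with 48.0% of all genes called, had 3.98-fold more CCN1, 11.0-fold more CCN2 and 2.45-fold more CCN3 (edgeR adjusted p = 5.73e-13, 1.16e-12 and 2.50e-08). CCN4 differed by -0.42 (SE 0.28, edgeR adjusted p = 0.235) and CCN5 by 0.24 (95% interval -0.42 to 0.90).

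The fusions differed from each other in CCN2 and CCN3, in a comparison that called 42.7% of all genes. TAZ-CAMTA1 had 1.55-fold less CCN2 (log2 -0.63, SE 0.18, edgeR adjusted p = 0.00603) and 2.42-fold less CCN3 (log2 -1.28, SE 0.13, edgeR adjusted p = 4.75e-08) than YAP-TFE3. CCN1 differed by -0.14 (95% interval -0.35 to 0.08). CCN5 differed by 0.65 (0.03 to 1.26, edgeR adjusted p = 0.083), and this difference passed with total-count scaling (0.74, adjusted p = 0.0484).

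Between the TAZ4SA-labelled libraries and YAP5SA, where 7.17% of all genes were called, edgeR and DESeq2 each called 0 of the 5 tested members, and 2 had an unadjusted p under 0.05. An unadjusted edgeR p under 0.05 was found for 3684 of all 19997 genes in this comparison. CCN1 was higher in all TAZ4SA-labelled libraries (log2 0.29, 95% interval 0.07 to 0.50, edgeR adjusted p = 0.105). CCN3 was lower in all of them (log2 -0.52, -0.91 to -0.12, edgeR adjusted p = 0.116).

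The balance within the family was examined per exon length, taken as all annotated exon bases of a gene (3698 for CCN1 and 2338 for CCN2). CCN2 made up 48.7%, 43.6% and 42.1% of the summed CCN1 and CCN2 in EV, and 69.4%, 69.1% and 62.8% in YAP-TFE3. The group means were 44.8% ± 3.45 in EV, 42.2% ± 4.79 in TFE3, 51.2% ± 2.16 in the TAZ4SA-labelled libraries, 51.5% ± 1.06 in YAP5SA, 59.6% ± 0.671 in TAZ-CAMTA1, 61.9% ± 1.96 in EVsub, 61.9% ± 1.05 in CAMTA1 and 67.1% ± 3.75 in YAP-TFE3. On this scale CCN1 outweighed CCN2 in EV and TFE3, and the pair was near balance in YAP5SA and the TAZ4SA-labelled libraries. CCN2 outweighed CCN1 in every library of the fusions and of the sub-confluent groups. Which gene outweighs the other depends on the length used. In CPM without length, CCN1 averaged 129 against 120 for CCN2 in TAZ-CAMTA1, 734 against 493 in YAP5SA and 896 against 596 in the TAZ4SA-labelled libraries. It averaged 142 against 186 in YAP-TFE3, 102 against 106 in EVsub and 188 against 193 in CAMTA1. In 9 of 12 comparisons the libraries did not overlap, each at an exact two-sided permutation p of 0.1, the smallest that 3 against 3 allow (adjusted p = 0.133 over 12 comparisons).

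CCN3 made up 93.9%, 92.3% and 93.3% of the summed CCN3 and CCN4 in YAP-TFE3, above every library of the other groups. The means of the other groups lay between 69.9% ± 10.5 in the TAZ4SA-labelled libraries and 83.2% ± 4.18 in EV. The difference between YAP-TFE3 and EV was 9.93 percentage points (exact two-sided permutation p = 0.1, adjusted p = 0.24 over 12 comparisons), so the design cannot pass a threshold of 0.05 here.

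**Figure D3:**
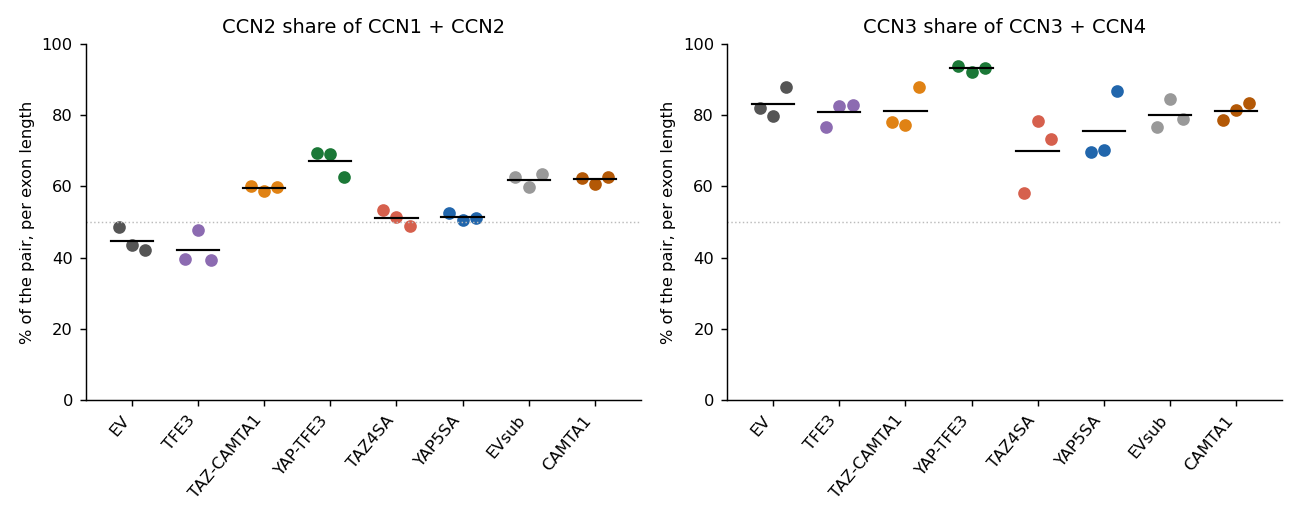
Share of CCN2 in CCN1 plus CCN2 (left) and of CCN3 in CCN3 plus CCN4 (right), in percent of CPM per kb of exon, for each library (points) with the mean of 3 (lines). On the left, EV and TFE3 lie below 50% (dotted line) and both fusions above it, and on the right YAP-TFE3 lies between 92.3% and 93.9%.

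Receptors of CCN proteins were read from a list of 16 integrin, syndecan and other receptor genes, of which 15 were tested and FGFR2 was not. TAZ-CAMTA1 against EV raised 4 and lowered 0 of them (median log2 change 0.26, against 0.00485 over all genes), YAP-TFE3 raised 9 and lowered 2 (median 0.56, against -0.0107). The TAZ4SA-labelled libraries had 6 higher and 4 lower (median 0.21, against -0.0348) and YAP5SA 5 higher and 3 lower (median 0.06, against -0.0364). EVsub against EV had 6 higher and 2 lower (median 0.04, against -0.0195). TFE3 against EV had 0 called with edgeR, 0 with DESeq2 and 2 at an unadjusted p under 0.05. For CAMTA1 against EVsub these numbers were 0, 0 and 4 in the same order. Over all 19997 genes, edgeR gave an unadjusted p under 0.05 for 757 in TFE3 against EV and 2474 in CAMTA1 against EVsub. It called 0.0350% and 1.83% of all genes there. The share of all genes called, against which the receptor counts are to be read, was 4.98% for TAZ-CAMTA1, 48.2% for YAP-TFE3, 49.2% for the TAZ4SA-labelled libraries, 44.3% for YAP5SA and 36.8% for EVsub.

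ITGB3, the beta chain of the alpha-v beta-3 integrin that binds CCN1 and CCN2, rose from 6.91 ± 0.922 CPM in EV to 98.9 ± 4.39 CPM in YAP-TFE3 (log2 3.84, SE 0.14, edgeR adjusted p = 4.94e-16) and to 11.0 ± 0.732 CPM in TAZ-CAMTA1 (log2 0.66, edgeR adjusted p = 0.00492). With YAP5SA it stood at 7.21 ± 0.905 CPM, and in EVsub at 10.9 ± 1.07 CPM, near the TAZ-CAMTA1 level. ITGB2, the beta chain of leukocyte integrins, averaged 0.558 ± 0.192 CPM in EV, against 2.41 ± 0.769 with TAZ-CAMTA1, 11.3 ± 0.172 CPM in the TAZ4SA-labelled libraries and 22.3 ± 4.73 CPM in YAP5SA (edgeR adjusted p = 5.98e-05, 6.32e-12 and 1.55e-13). In YAP-TFE3 ITGB2 averaged 1.86 ± 0.228 CPM. Its partner ITGAM was called higher with YAP-TFE3, at 0.999 ± 0.551 CPM against 0.144 ± 0.0292 CPM in EV, on 3 to 5 reads per EV library and 18 to 56 per YAP-TFE3 library (log2 2.76, SE 0.54, edgeR adjusted p = 0.000155). SDC4, the syndecan co-receptor, rose from 52.3 ± 1.98 CPM in EV to 188 ± 20.4 CPM in the TAZ4SA-labelled libraries and 173 ± 20.7 CPM in YAP5SA (log2 1.85 and 1.73). It also stood above EV in YAP-TFE3 (104 ± 17.2 CPM), EVsub (102 ± 10.6 CPM) and CAMTA1 (127 ± 24.6 CPM).

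Among the receptors that fell, LRP6, a WNT co-receptor that CCN2 can bind, went from 73.2 ± 3.65 CPM in EV to 32.7 ± 1.38 CPM in the TAZ4SA-labelled libraries and 41.2 ± 5.99 CPM in YAP5SA (log2 -1.16 and -0.83). ITGB5 was lower in the TAZ4SA-labelled libraries (161 ± 35.1 against 290 ± 18.7 CPM, log2 -0.84) and in YAP-TFE3 (log2 -0.37, edgeR adjusted p = 0.0389), and ITGAV was lower with YAP5SA (59.4 ± 6.91 against 82.5 ± 4.64 CPM, log2 -0.47).

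**Figure D4:**
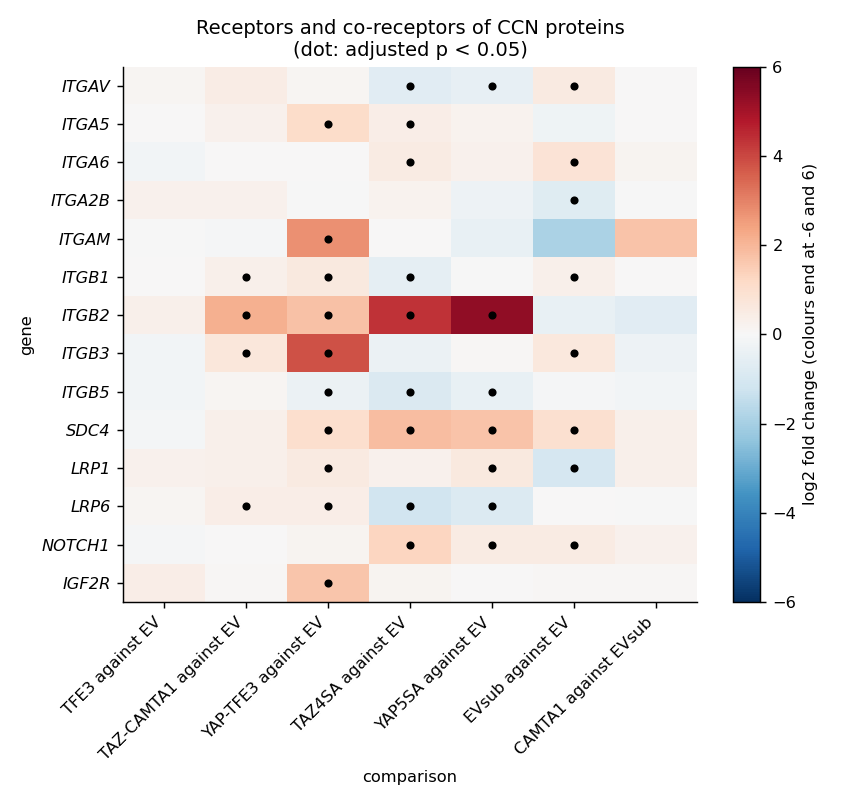
log2 fold change (colour) of 14 of the 15 tested receptor genes of CCN proteins (rows) in 7 comparisons with a vector control (columns); a dot marks an edgeR adjusted p under 0.05. ITGB3 is darkest with YAP-TFE3 (3.84), ITGB2 with YAP5SA (5.32), and LRP6 is lower with YAP5SA (-0.83).

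Of 23 genes that act upstream of CCN genes (the TEAD, LATS, TGF-beta, SMAD, SRF and WNT components), TAZ-CAMTA1 against EV had 6 higher and 0 lower, YAP-TFE3 9 higher and 5 lower, the TAZ4SA-labelled libraries 9 and 9, YAP5SA 11 and 8, and EVsub 8 and 5. Their median log2 changes were 0.15, 0.17, 0.05, 0.10 and 0.17, against 0.00485, -0.0107, -0.0348, -0.0364 and -0.0195 over all genes. The shares of all genes called in these comparisons were 4.98%, 48.2%, 49.2%, 44.3% and 36.8%, so most of these counts stand against a high background. TFE3 against EV had 0 called with edgeR, 0 with DESeq2 and 0 at an unadjusted p under 0.05, and for CAMTA1 against EVsub these numbers were 0, 0 and 3 in the same order. In CAMTA1 against EVsub 2474 of all 19997 genes had an unadjusted edgeR p under 0.05. The list holds YAP1 and WWTR1, which are construct genes as well. LATS2, a kinase that restrains YAP and TAZ, rose from 10.8 ± 0.464 CPM in EV to 31.9 ± 4.60 with TAZ-CAMTA1, 37.5 ± 3.38 with YAP-TFE3 and 39.7 ± 1.82 CPM in the TAZ4SA-labelled libraries (log2 1.57, 1.80 and 1.88). With YAP5SA it stood at 29.8 ± 2.53 CPM. TEAD4, a DNA-binding partner of YAP and TAZ, rose from 22.2 ± 0.945 CPM to 45.7 ± 2.88 with TAZ-CAMTA1 and 53.5 ± 9.31 with YAP-TFE3 (log2 1.05 and 1.27). The rise was not particular to the fusions, since TEAD4 stood at 57.0 ± 2.81 CPM in the TAZ4SA-labelled libraries, 54.1 ± 0.678 in YAP5SA and 31.4 ± 2.16 in EVsub.

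The TGF-beta ligands, inducers of CCN2, moved apart. TGFB2 rose from 34.5 ± 5.94 CPM in EV to 220 ± 15.7 CPM in the TAZ4SA-labelled libraries and 221 ± 22.1 CPM in YAP5SA (log2 2.67 and 2.68). TGFB3 fell from 24.5 ± 1.07 CPM to 4.71 ± 0.529 and 4.65 ± 0.506 CPM in the same groups (log2 -2.38 and -2.40) and to 8.66 ± 1.45 CPM in YAP-TFE3 (log2 -1.50). Neither pattern was particular to these groups. TGFB2 also stood at 90.3 ± 10.5 CPM in CAMTA1, 72.8 ± 11.5 in EVsub, 68.8 ± 10.2 in YAP-TFE3 and 53.7 ± 3.63 in TAZ-CAMTA1, against 33.0 ± 3.87 in TFE3. TGFB3 stood at 9.28 ± 2.18 CPM in CAMTA1 and 11.0 ± 1.33 in EVsub, against 25.6 ± 2.66 in TFE3 and 30.5 ± 3.55 in TAZ-CAMTA1. TGFBR1, their type I receptor, was lower in the TAZ4SA-labelled libraries (log2 -0.77). AXIN2, a target of WNT signaling, fell with YAP-TFE3 (log2 -0.79) and rose with YAP5SA (log2 1.52), and WWTR1 fell with YAP5SA (log2 -1.57).

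Of 20 other known YAP and TAZ targets, 6 were higher and 0 lower in TAZ-CAMTA1 against EV, 13 higher and 3 lower in YAP-TFE3, 15 and 0 in the TAZ4SA-labelled libraries, 16 and 0 in YAP5SA, 11 and 3 in EVsub, and 2 and 0 in CAMTA1 against EVsub. Their median log2 changes were 0.25, 0.62, 1.08, 1.09, 0.52 and 0.14. The shares of all genes called were 4.98%, 48.2%, 49.2%, 44.3%, 36.8% and 1.83%. TFE3 against EV called 0 with edgeR, 0 with DESeq2 and 0 at an unadjusted p under 0.05. AMOTL2, an angiomotin, rose from 20.9 ± 0.400 CPM in EV to 103 ± 13.2 with TAZ-CAMTA1, 129 ± 9.12 with YAP-TFE3 and 339 ± 8.89 CPM in the TAZ4SA-labelled libraries (log2 2.30, 2.62 and 4.02). It averaged 303 CPM with YAP5SA (log2 3.86) and 45.7 CPM in EVsub (log2 1.13), against 18.8 CPM with TFE3. ANKRD1, a cardiac ankyrin repeat protein, had another pattern. It stood at 1.17 ± 0.332 CPM in TAZ-CAMTA1 and 1.08 ± 0.437 CPM in EV, rose to 8.53 ± 2.55 CPM in YAP-TFE3 (log2 2.93), and reached 253 ± 26.2 CPM in the TAZ4SA-labelled libraries and 189 ± 35.9 CPM in YAP5SA (log2 7.82 and 7.41). AJUBA, a LIM protein of the Hippo pathway, rose with TAZ-CAMTA1 (log2 1.68), PTPN14 rose with CAMTA1 against EVsub (log2 0.39) and AMOTL2 likewise (0.57). DOCK5 and CCDC80 fell with YAP-TFE3 (log2 -0.61 and -0.45).

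The genes whose log2 CPM ran most nearly parallel to each member over the 24 libraries were sought among 12152 genes whose mean reached 100 counts. The libraries fall into 8 groups, so these correlations describe group levels and were not tested. For CCN1 they were CAV2 of caveolae, the adhesion adaptor NEDD9 and TGFB2 (each r = 0.977, n = 24 libraries). For CCN2 they were AMOTL2 (r = 0.955), the carboxypeptidase gene CPA4 (0.954) and the spectrin gene SPTB (0.953).

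For CCN3 the nearest were GPR137C (r = 0.961), RMDN1 (0.959) and PBDC1 (0.953). Their log2 differences from EV were 0.48, 0.55 and 0.50 in YAP-TFE3 and -1.27, -0.44 and -0.93 in YAP5SA. They were chosen for likeness over these libraries, so their directions follow from the choice and are given as a description. For CCN4 they were EHD3 (r = 0.936), the dopamine receptor gene DRD2 (0.927) and TEX10 (0.904). Their log2 differences from EV, fixed in direction by the same choice, were 0.72, 1.27 and 0.33 in EVsub and -1.19, -1.80 and -0.38 in YAP5SA. CCN5 had weaker neighbours, IFITM2 (r = 0.851), MGAT3 (0.850) and the membrane protease gene MMP15 (0.850). CCN6 was too sparse for such a search.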

How the data were processed

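Poly(A) RNA of SW872 cells was sequenced in 24 libraries, 8 groups of 3, grouped by GEO title. The authors deposited raw whole-number counts per Ensembl gene, from a stranded mRNA kit. The study aligned reads to hg38 with Hisat2 in bcbio-nextgen and ran Salmon with tximport for its own gene-level tests (labels name bcl2fastq); which of these steps made the deposited counts is not given in the sources used here. Totals were 19700277 to 35287476 counts, which limits precision at low counts; floors cover counting error only. Of 60279 identifiers, 56104 were named from GENCODE 44.

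Counts were tested with edgeR 4.0.16 in R 4.3.3 (TMM scaling, mean of at least 5 counts, 19997 genes, all 24 libraries, 1 mean per group, 12 comparisons, Benjamini-Hochberg adjusted p under 0.05). SE is the log2 fold change divided by the root of F, and 95% intervals use the t distribution. DESeq2 1.42.0, scaling, filters, fits on the compared groups, a replicate block and fits without each library were alternatives. Exact permutation tests used scipy 1.17.1. Scripts were tested on simulated counts.

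Named genes were the 6 members, the 3 genes of highest Pearson correlation (log2 CPM, prior count 2) with each tested member, and up to 2 called risen and 2 fallen genes per list and construct, by size of change; cell type markers and IDs of overlapping genes were checks. The members and lists were chosen with earlier results of these data known. 1 receptor gene that the rule names is counted in its list and is not reported here.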

Additional observations from a re-analysis of the deposited data

How the results depend on the processing

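Of 780 log2 fold changes of members refitted under an alternative, 749 kept their direction and side of the threshold, 14 lost a call, 3 gained one and 14 turned direction, all of the last when 1 library was left out. The number of genes called moved most where few were called. For TFE3 against EV it went from 7 to 40 with no filter beyond 1 count, 15 with DESeq2, 2 with only the compared groups and 1 to 12 without single libraries. For CAMTA1 against EVsub it went from 366 to 652 with no filter, 662 with only the compared groups and 176 to 446 without single libraries, and members called there ranged from 1 to 2. Without single libraries the count ranged from 544 to 885 for TAZ-CAMTA1 against EV (main 996) and from 901 to 1294 for the TAZ4SA-labelled libraries against YAP5SA (main 1434); fewer samples enter these fits. Members called in YAP-TFE3 against YAP5SA went from 5 to 3 with only the compared groups, which leaves fewer degrees of freedom. Directions that turned without a single library belonged to differences that missed the threshold: CCN5 in TFE3 against EV (-0.20 to 0.38), CCN4 in TAZ-CAMTA1 against EV (-0.16 to 0.35), CCN4 in TFE3 against EV (-0.14 to 0.20), CCN5 in EVsub against EV (-0.47 to 0.11) and CCN4 in TAZ4SA against YAP5SA (-0.45 to 0.16). Total-count scaling shifted the median log2 change by -0.197 in TAZ4SA against EV, -0.185 in YAP5SA against EV and 0.198 in TAZ-CAMTA1 against TAZ4SA, and turned no member; it swapped 1 neighbouring pair of groups in the order of CCN4 and 2 in that of CCN5. DESeq2 size factors and the filterByExpr filter changed no call of a member. The mean correlation between deviations of same-numbered libraries ran from -0.0962 to 0.189 over the comparisons. The highest mean was in TAZ4SA against YAP5SA, where all pairs were positive (0.0763 to 0.366). Every comparison held at least 1 pair at 0.0763 or below, so numbers were not taken to pair libraries. With the replicate block 59 of 60 member results were unchanged, and CCN5 in TAZ-CAMTA1 against YAP-TFE3 passed (log2 0.66, adjusted p = 0.0358). The causes were not tested. Depth limits CCN5 and CCN6, with at most 31 and 11 reads per library.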
